A study of Mus musculus with 11 samples.

Results

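Mice that overexpressed the transcription factor E2F3a and received saline were compared with mice that expressed green fluorescent protein (GFP) and received cocaine. The comparison takes 7 of the 11 libraries of the series, chosen by their sample titles: 4 of E2F3a with saline and 3 of GFP with cocaine. Every library held polyadenylated RNA from the nucleus accumbens of 1 C57/BL6 mouse, and both genes were delivered by virus, so the cocaine mice carried a viral GFP in place of E2F3a. The groups therefore differ in the viral gene and in the drug at once, and a difference between them cannot be told apart into these parts. The labels used here give neither the age of the mice nor the kind of virus, the cells it enters, or the dose and timing of cocaine.

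The values are the authors' log2 fold changes of each group over the same 4 mice with GFP and saline, for 14667 genes. The log2 difference given for a gene is the value of the E2F3a mice minus that of the cocaine mice, from which the shared saline mice cancel. A positive difference thus means a higher level in the E2F3a mice, and a log2 difference of 1 is a doubling. Levels of single mice were not used here, so the spread enters as a standard error (SE) rebuilt from the authors' moderated t statistics. In bulk tissue fewer cells of a type and less RNA per cell cannot be told apart.

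E2F3 belongs to the E2F family, which binds DNA with a DP partner and switches on genes for DNA synthesis when the retinoblastoma protein lets go of it. Its a and b forms start from separate promoters of 1 gene. Cocaine blocks the reuptake of dopamine and so raises this transmitter in the accumbens, a part of the ventral striatum that serves reward. Most neurons there are medium spiny neurons, which carry either the D1 or the D2 dopamine receptor and do not divide.

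Transcripts that mark striatal neurons were abundant. The mean log2 expression of Ppp1r1b, a phosphatase inhibitor of medium spiny neurons, stood at percentile 99.1 of all genes in the authors' deposited tables. Penk, the enkephalin precursor of D2 neurons, stood at 99.6 and Drd1, the D1 dopamine receptor, at 94.1 in the authors' deposited tables. Slc17a7, the vesicular glutamate transporter of cortical neurons, was at percentile 21.8 there, by the authors' deposited tables. Other cortical neuron markers were not all scarce. The 6 measured ones had a median percentile of 43.6, with a mean log2 expression from 1.54 for Tbr1 to 7.14 for Nrgn in the authors' deposited tables.

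No single gene passed the test over all genes. At the unadjusted threshold more genes lay higher than lower in the E2F3a mice, unless the mean and the length and expression trends were removed. At an adjusted p under 0.05 by the moderated t of the difference with Benjamini-Hochberg adjustment, 0 genes were called, which is 0% of 14667, and the smallest adjusted p was 0.927. At an unadjusted p under 0.05 there were 643 genes, or 4.38% of all, against 733.35 expected from uniform p values. Of these, 580 were higher in the E2F3a mice (3.95% of all genes) and 63 were lower (0.43%). The split by direction depended on centring: with the median of all genes (0.03) taken off, 412 were higher and 119 lower. With trends in transcript length and mean expression removed, 210 were higher and 250 lower. That fit also takes off the mean of its genes, so this split mixes centring with the trends. The same holds for every value below with these trends removed.

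The 580 higher genes had a median log2 difference of 0.56, and the 63 lower genes one of -0.39. Over the 580 higher genes the median of the authors' deposited tables was -0.03 in the E2F3a mice and -0.55 in the cocaine mice. Over the 63 lower genes the same medians of the authors' deposited tables were -0.13 in the E2F3a mice and 0.32 in the cocaine mice. Relative to the saline mice with GFP, the cocaine mice thus stood farther from 0 than the E2F3a mice in both sets. These sets were picked on the difference, so the medians describe them and test nothing.

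**Figure D1:**
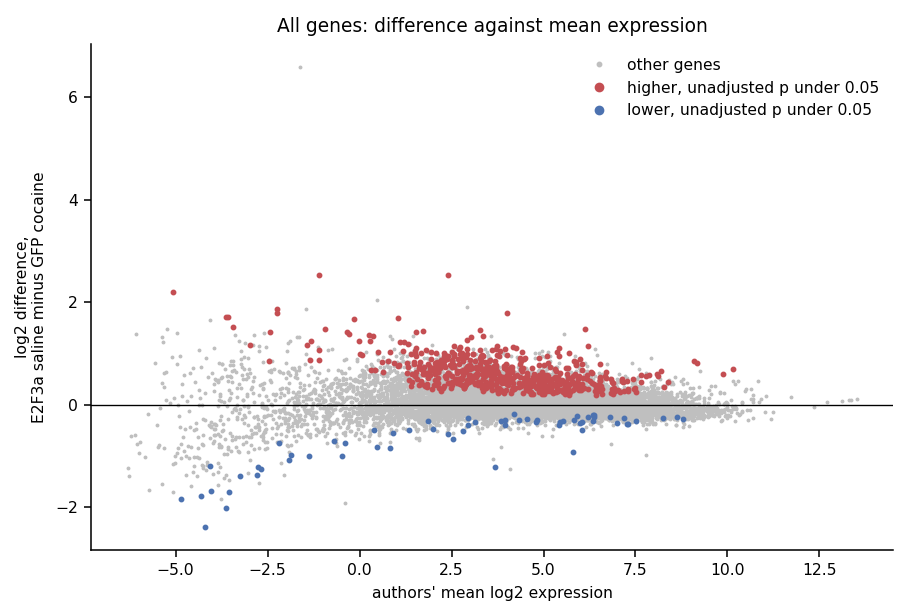
The log2 difference (E2F3a saline minus GFP cocaine, vertical axis) is plotted against the authors' mean log2 expression (horizontal axis), 1 point per gene. Of the coloured points, at an unadjusted p under 0.05, 580 lie above 0 and 63 below, and none passes the adjustment over all genes.

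E2f3 itself was among the higher genes with the smallest unadjusted p, once the lowest 25% of genes by mean expression were left out. Some other genes differed by more, as given below. E2f3 (ENSMUSG00000016477, mm10 chromosome 13, 29906575 to 29986063, minus strand, protein-coding) stood at 1.01 in the E2F3a mice and at -0.08 in the cocaine mice in the authors' deposited tables. The log2 difference was 1.10 (SE 0.22, 95% interval 0.61 to 1.58), or 2.14-fold higher. By the moderated t this gave an unadjusted p of 0.000375 and, with Benjamini-Hochberg adjustment, an adjusted p of 0.927. Counts of this gene do not separate viral transcripts from those of the mouse gene. The other family members differed by less: E2f8, an atypical repressor of the family, by 0.62 (SE 0.25, unadjusted p = 0.0277), E2f2 by 0.47 (SE 0.31) and E2f1 by 0.25 (SE 0.17). The median over the 9 measured E2F and DP genes was 0.18, and 0.039 with the length and expression trends removed.

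Leaving out the lowest 25% of genes by mean expression, the higher genes with the smallest p were led by Ccdc80, which codes for a secreted matrix protein. Ccdc80 (ENSMUSG00000022665, mm10 chromosome 16, 45093402 to 45128077, plus strand) stood at 0.09 in the E2F3a mice and -0.61 in the cocaine mice in the authors' deposited tables. The log2 difference was 0.70 (SE 0.13, unadjusted p = 0.000223), the smallest p of all genes. Cybrd1, a ferric reductase (ENSMUSG00000027015, chromosome 2, 71117923 to 71142926, plus strand), differed by 0.97 (SE 0.19, unadjusted p = 0.000279). Slc13a3, a sodium-coupled carrier of dicarboxylates (ENSMUSG00000018459, chromosome 2, 165405028 to 165473230, minus strand), differed by 0.55 (SE 0.11, unadjusted p = 0.000361). For these 3 genes the E2F3a mice lay close to the saline mice with GFP and the cocaine mice lay below them.

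The other higher genes have varied roles. Apcdd1, a membrane inhibitor of Wnt signalling, differed by 0.51 (SE 0.11) and Chrdl1, an antagonist of bone morphogenetic proteins, by 1.04 (SE 0.26). Nupr1, a nuclear protein induced by stress, differed by 1.02 (SE 0.22), Fam167a by 0.87 (SE 0.19) and S100a4, a small calcium-binding protein, by 1.08 (SE 0.27). Fabp7, which carries fatty acids in astrocytes and radial glia, stood at -0.28 in the E2F3a mice and -1.11 in the cocaine mice in the authors' deposited tables. Its log2 difference was 0.84 (SE 0.22). Hspb6, a small heat shock protein, differed by 0.70 (SE 0.18), Acot1, a thioesterase that acts on acyl-CoA, by 0.74 (SE 0.19), and Ezr, or ezrin, which ties the membrane to actin, by 0.47 (SE 0.12). The last of the 15 were Pter at 0.68 (SE 0.18) and Hfe, a regulator of iron uptake, at 0.65 (SE 0.18). Their unadjusted p ran from 0.000223 for Ccdc80 to 0.00337 for Hfe. The widest SE adds both variances as if no control were shared. With it the unadjusted p of each of these 15 genes, E2f3 included, lay under 0.05, the largest being 0.0195 for Hfe. The genes were picked by their small p, so this result was largely set by the choice. With that SE 83 genes had an unadjusted p under 0.05, and the smallest p with Benjamini-Hochberg adjustment was 0.9998.

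Of the genes that lay lower in the E2F3a mice than in the cocaine mice, Nyap2 had the smallest p above the same expression limit. Nyap2, an adaptor of neuronal phosphoinositide signalling (ENSMUSG00000054976, mm10 chromosome 1, 81076950 to 81341764, plus strand), stood at -0.10 in the E2F3a mice and 0.23 in the cocaine mice in the authors' deposited tables. Its log2 difference was -0.33 (SE 0.10, unadjusted p = 0.00645). Kirrel3, an adhesion protein of synapses, differed by -0.32 (SE 0.11), Nlgn1, a postsynaptic partner of neurexins, by -0.25 (SE 0.10) and Gabra2, a subunit of the GABA-A receptor, by -0.32 (SE 0.13). Vgf, the precursor of several neuropeptides, differed by -0.26 (SE 0.09), Rab27b, a GTPase of vesicle release, by -0.33 (SE 0.14) and Rgs17, which shortens G protein signals, by -0.38 (SE 0.15).

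Among the 15 lower genes with the smallest p above that limit, the largest difference belonged to Npas4, a transcription factor that neuronal activity induces. Npas4 stood at -0.96 in the E2F3a mice and 0.26 in the cocaine mice in the authors' deposited tables. Its log2 difference was -1.22 (SE 0.46, 95% interval -2.22 to -0.21, unadjusted p = 0.0218). Elk1, a target of the ERK kinases, differed by -0.29 (SE 0.11) and Mex3b, an RNA-binding protein, by -0.32 (SE 0.13). Also lower were Crocc, a protein of the ciliary rootlet, at -0.49 (SE 0.20), Fsd1 at -0.27 (SE 0.11), March4, a membrane ubiquitin ligase, at -0.29 (SE 0.12) and the imprinted Rtl1 at -0.39 (SE 0.15). Rtl1 overlaps antisense transcripts, and whether reads were counted by strand is not given in the sources used here. With the widest SE only Nyap2 of the 15 lower genes with the smallest p had an unadjusted p under 0.05, at 0.032.

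**Figure D2:**
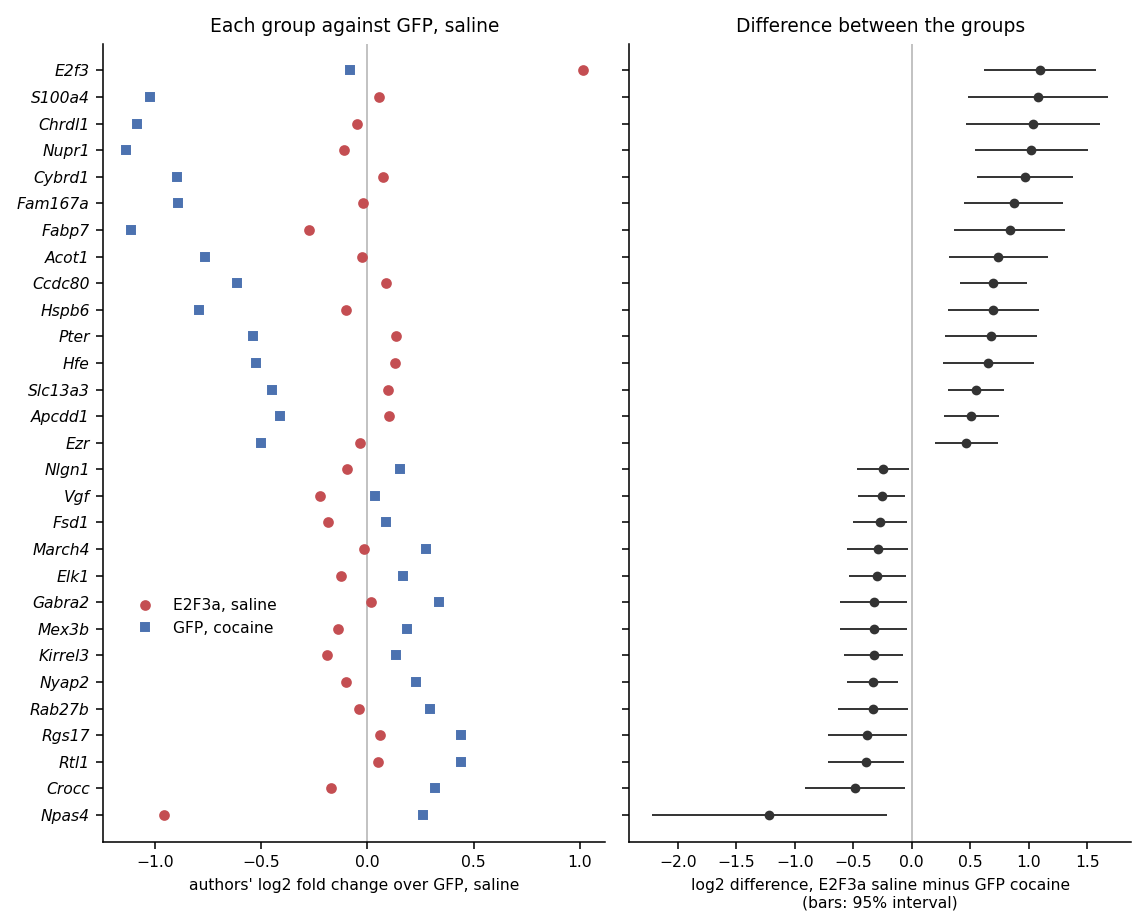
The left panel gives the authors' log2 fold change over the saline mice with GFP for the E2F3a mice (circles) and the cocaine mice (squares), and the right panel the log2 difference with its 95% interval, for the named genes. E2f3 alone of the 15 higher genes has its E2F3a value near 1, at 1.01; for Ccdc80 and Cybrd1 the E2F3a values are 0.09 and 0.07 and the cocaine values -0.61 and -0.90.

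Genes of the cell cycle, the classical targets of E2F, had higher values in E2F3a than in cocaine mice, and list medians under the saline mice with GFP in both groups. All 36 measured DNA replication genes had a difference above 0, with a median of 0.36, where 57.7% of all genes did and the median of all genes was 0.03. Of the 36 genes, 10 (27.8%) were higher at an unadjusted p under 0.05, 0 were lower and 26 did not pass that threshold, against 3.95% of all genes higher. With the widest SE, set as if no control were shared, 0 of these 10 calls remained, with Rrm2 at an unadjusted p of 0.0644. The list's median in the authors' deposited tables was -0.11 in the E2F3a mice and -0.48 in the cocaine mice. With trends in length and expression removed the median difference was 0.24. The gene lists here and below were chosen with earlier results of these data known, so their shares describe them and test nothing.

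Rrm2, a subunit of the ribonucleotide reductase that makes DNA precursors, stood at -0.27 in the E2F3a mice and -1.16 in the cocaine mice in the authors' deposited tables. Its log2 difference was 0.89 (SE 0.32, unadjusted p = 0.0174). Gins1 and Cdc45, parts of the replicative helicase, differed by 0.61 (SE 0.24) and 0.58 (SE 0.24). Mcm6 and Mcm3, of the ring of that helicase, differed by 0.56 (SE 0.23) and 0.44 (SE 0.20), Lig1, a DNA ligase, by 0.40 (SE 0.17), and Tk1, thymidine kinase, by 0.59 (SE 0.26). None of the 36 passed the adjustment over all genes.

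The E2F motif TTTCCCGC or TTTGGCGC was looked for on both strands of the 300 bases that run from 250 before to 50 after each gene start, in promoters of RefSeq (build GRCm38.p6, the assembly of mm10). It was found in 11 of the 27 DNA replication genes with an entry (40.7%), in 0 of 22 mitosis genes, and in 486 of all 27025 genes of the table. The 580 higher genes held it in 16 of 424 entries (3.77%), against 3.17% of the 10351 measured genes with an entry. Within the replication list, the 11 genes with a match had a median difference of 0.34 and the 16 genes without one a median of 0.35. A match is a description of these letters and not a bound site. The promoters of Mcm6 (chr1:128359656-128359955, minus strand), Mcm3 (chr1:20820263-20820562, minus strand) and Gins3 (chr8:95633309-95633608, plus strand) are shown because these are the replication genes with the smallest p among those with a match. They run 5′ to 3′ on the gene's strand, and capitals mark the motif, which reads GCGGGAAA where it lies on the other strand.
Mcm6: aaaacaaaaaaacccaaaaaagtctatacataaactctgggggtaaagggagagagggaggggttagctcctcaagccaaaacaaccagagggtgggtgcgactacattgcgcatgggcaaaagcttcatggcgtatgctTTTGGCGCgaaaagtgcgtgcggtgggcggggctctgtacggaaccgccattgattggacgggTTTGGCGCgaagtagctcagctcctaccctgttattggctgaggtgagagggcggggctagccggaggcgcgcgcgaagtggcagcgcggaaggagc
Mcm3: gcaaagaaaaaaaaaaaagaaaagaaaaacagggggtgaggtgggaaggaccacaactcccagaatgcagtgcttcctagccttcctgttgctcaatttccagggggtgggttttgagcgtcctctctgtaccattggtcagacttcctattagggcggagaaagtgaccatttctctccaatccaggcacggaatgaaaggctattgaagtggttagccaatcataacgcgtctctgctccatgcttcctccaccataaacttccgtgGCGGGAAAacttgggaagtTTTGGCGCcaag
Gins3: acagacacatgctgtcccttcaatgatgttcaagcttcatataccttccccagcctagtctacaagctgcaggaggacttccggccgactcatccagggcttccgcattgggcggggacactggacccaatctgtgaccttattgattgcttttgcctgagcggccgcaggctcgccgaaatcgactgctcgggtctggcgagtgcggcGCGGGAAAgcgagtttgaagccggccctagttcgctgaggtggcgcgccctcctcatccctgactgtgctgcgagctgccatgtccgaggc
Counted from the gene start, the matches begin at -110 and -47 in Mcm6, at 19 and 38 in Mcm3 and at -41 in Gins3. Gins3 differed by 0.39 (SE 0.17, unadjusted p = 0.0489).

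All 28 measured mitosis genes also had a difference above 0, with a median of 0.59. Of these, 4 (14.3%) were higher at an unadjusted p under 0.05, against 3.95% of all genes. Of the rest, 0 were lower and 24 did not pass, and with the widest SE 0 passed. Ccnb1, or cyclin B1, which drives entry into mitosis, stood at -0.41 in the E2F3a mice and -1.23 in the cocaine mice in the authors' deposited tables. The log2 difference of Ccnb1 was 0.82 (SE 0.36, unadjusted p = 0.0436), that of its kinase Cdk1 0.71 (SE 0.32), and those of the centromere genes Cenpa and Cenpf 0.76 (SE 0.33) and 0.71 (SE 0.32). The list's median in the authors' deposited tables was -0.27 in the E2F3a mice and -0.82 in the cocaine mice.

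The regulators upstream of E2F lay the same way. All 19 measured pocket proteins and G1 regulators had a difference above 0 (median 0.31). At an unadjusted p under 0.05, 3 (15.8%) were higher, against 3.95% of all genes. These were Cdk2, a kinase of the step into DNA synthesis, at 0.58 (SE 0.19), Cdkn2c, an inhibitor of cyclin D kinases, at 0.64 (SE 0.28), and Rb1, the retinoblastoma protein that restrains E2F, at 0.29 (SE 0.12); with the widest SE only Cdk2 of the list passed. The list of p53 targets and apoptosis genes had a median of 0.19, with 3 of 19 (15.8%) higher and 0 lower. Among these were Trp53inp1, a p53-induced nuclear protein, at 0.39 (SE 0.12) and Ccng1, or cyclin G1, at 0.35 (SE 0.11), both of which also passed with the widest SE. Histone genes, with 7 of 15 entries measured and the variants H2afx and H2afz among them, had a median of 0.13 (-0.0033 with length and expression trends removed) and 0 members past that threshold.

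**Figure D3:**
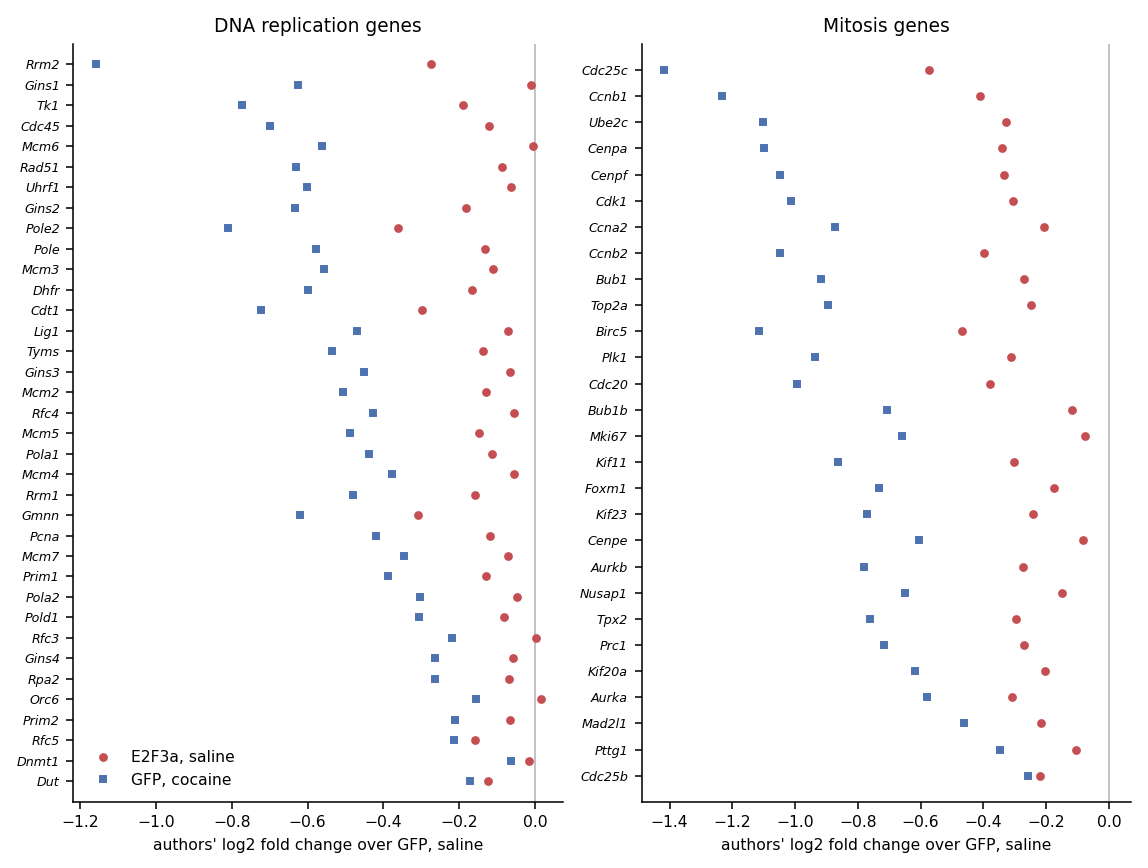
The authors' log2 fold change over the saline mice with GFP is given for the E2F3a mice (circles) and the cocaine mice (squares), 1 row per gene, for 36 DNA replication and 28 mitosis genes. In every row the E2F3a value lies to the right of the cocaine value, with list medians of -0.11 against -0.48 for replication and -0.27 against -0.82 for mitosis.

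Markers of leukocytes and red cells lay on the same side as the cell cycle genes. All 7 measured genes of B and plasma cells had a difference above 0 (median 1.08). At an unadjusted p under 0.05, 4 (57.1%) were higher, against 3.95% of all genes. Igkc, the constant region of kappa light chains, stood at -1.20 in the E2F3a mice and -3.73 in the cocaine mice in the authors' deposited tables, a log2 difference of 2.53 (SE 1.00). Cd79a, of the B cell receptor, differed by 1.41 (SE 0.55), Cd22, a sialic acid receptor of B cells, by 0.94 (SE 0.38) and Ighm, of immunoglobulin M, by 0.47 (SE 0.21). Only Ighm was above the 25th percentile of mean expression, so the list's median was 0.47 on that filter.

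All 12 T and natural killer cell genes had a difference above 0 as well (median 0.90), with 2 (16.7%) higher, against 3.95% of all genes. These were Cd3g, a chain of the CD3 complex, at 1.34 (SE 0.54) and the T cell kinase Lck at 0.72 (SE 0.30). Of 8 measured genes of monocytes, neutrophils and border macrophages, 2 (25%) were higher, and the list's median was 0.60. Ms4a7, of border macrophages, stood at -0.21 in the E2F3a mice and -2.01 in the cocaine mice in the authors' deposited tables, a log2 difference of 1.79 (SE 0.53, unadjusted p = 0.00621). Ly6c2, of inflammatory monocytes, differed by 1.15 (SE 0.48). The 5 genes of red cells had a median of 0.65, with 3 (60%) higher at an unadjusted p under 0.05.

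Red cell genes were below the saline mice in both groups, and lower in the cocaine mice. Hbb-bs, a beta-globin, stood at -0.89 in the E2F3a mice and -1.54 in the cocaine mice in the authors' deposited tables. Its log2 difference was 0.65 (SE 0.25, unadjusted p = 0.0222). Hba-a2, an alpha-globin, differed by 0.72 (SE 0.27) and Hbb-bt by 0.71 (SE 0.29); these globin genes have near-identical copies, between which reads can be split. With the widest SE, Ms4a7 alone of the genes in these leukocyte and red cell lists had an unadjusted p under 0.05. The part that blood or leukocyte content has in the cell cycle result was not tested.

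Microglia genes lay on the same side. All 16 had a difference above 0, with a median of 0.41. At an unadjusted p under 0.05, 4 (25%) were higher, against 3.95% of all genes, and 0 passed with the widest SE. Ctss, the lysosomal protease cathepsin S, differed by 0.60 (SE 0.24), Tyrobp, an adaptor of microglial receptors, by 0.62 (SE 0.27), Aif1 by 0.51 (SE 0.21) and Cx3cr1, the fractalkine receptor, by 0.27 (SE 0.12). P2ry12, a purine receptor that marks resident microglia, differed by 0.33 (SE 0.19) and did not pass. The list's median in the authors' deposited tables was -0.03 in the E2F3a mice and -0.46 in the cocaine mice.

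Interferon response genes all lay above 0 too, in 22 of 22, with a median of 0.35. At an unadjusted p under 0.05, 2 (9.09%) were higher, against 3.95% of all genes. These were Ifitm3, which hinders the entry of viruses, at 0.57 (SE 0.20) and Bst2, which tethers virus particles, at 0.45 (SE 0.17). Of 15 antigen presentation genes 14 lay above 0 (median 0.28), and Ctss alone passed (6.67%). With the widest SE 0 genes of these lists passed. H2-K1, a class I molecule, differed by 0.47 (SE 0.22, unadjusted p = 0.052) and B2m, its light chain, by 0.46 (SE 0.23). Every mouse of these groups carried a virus, so no group without virus stands behind these values.

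Genes of reactive astrocytes were also higher in part. All 12 had a difference above 0 (median 0.64), and 5 (41.7%) were higher at an unadjusted p under 0.05, against 3.95% of all genes. Of these 5, Fabp7 alone passed with the widest SE. Vim, or vimentin, an intermediate filament of reactive glia, stood at -0.04 in the E2F3a mice and -0.90 in the cocaine mice in the authors' deposited tables. The log2 difference of Vim was 0.85 (SE 0.29, unadjusted p = 0.0133), and Gfap, the filament of astrocytes, differed by 0.69 (SE 0.25). Timp1, an inhibitor of matrix proteases, differed by 1.06 (SE 0.39) and S100a10 by 0.69 (SE 0.31), and Fabp7, given above, was the fifth to pass. Serpina3n, a serine protease inhibitor, differed by 0.66 (SE 0.30, unadjusted p = 0.0515) and did not pass.

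General astrocyte markers divided. The list of 12 had a median of 0.13, with 8 above 0 and 4 below. At an unadjusted p under 0.05, 3 (25%) were higher, against 3.95% of all genes. Aqp4, the water channel of astrocyte end-feet, stood at 0.20 in the E2F3a mice and -0.45 in the cocaine mice in the authors' deposited tables, a log2 difference of 0.65 (SE 0.21, unadjusted p = 0.0109). Aldh1l1, an enzyme of folate metabolism, differed by 0.46 (SE 0.17), while the glutamate carriers Slc1a3 and Slc1a2 differed by 0.26 (SE 0.14) and -0.15 (SE 0.24). Gfap is counted in both astrocyte lists, and of this list Aqp4 alone passed with the widest SE.

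The remaining non-neuronal lists given here had at most 2 members each past the unadjusted threshold. Of 7 measured ependymal and choroid plexus genes, 2 (28.6%) were higher, against 3.95% of all genes. These were Foxj1, the master factor of motile cilia, at 0.72 (SE 0.30) and Rarres2, or chemerin, at 0.67 (SE 0.27). Tmem212 of the same list had a difference of 1.87 with an SE of 1.57. The list's median was 0.72, and 0.23 as a mean weighted by precision. Collagen and laminin genes had a median of 0.17. Of these 18 genes, 2 (11.1%) were higher, Col5a2 at 0.65 (SE 0.23) and Col18a1 at 0.57 (SE 0.24). Among insulin-like growth factor genes Igfbp2, a binding protein, stood at -0.50 in the E2F3a mice and -1.48 in the cocaine mice in the authors' deposited tables. The log2 difference of Igfbp2 was 0.97 (SE 0.32), the only one of 9 members to pass (11.1%). Igfbp2 also passed with the widest SE, and 0 of the ependymal or collagen and laminin genes did. Medians were 0.13 for endothelial cells, 0.18 for pericytes and smooth muscle, 0.18 for oligodendrocytes, 0.08 for their precursors and 0.18 for ventricular progenitors and neuroblasts, with 0 members past an unadjusted p of 0.05 in each. All 14 endothelial and all 12 oligodendrocyte genes had a difference above 0, and 13 of the 45 lists had every measured member above 0.

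Neuronal genes lay the other way, slightly lower in the E2F3a mice than in the cocaine mice. All 23 genes of glutamate receptors and the postsynaptic density had a difference below 0, with a median of -0.23, where 57.7% of all genes lay above 0. Grin1, the obligatory NMDA receptor subunit, was the 1 member (4.35%) past an unadjusted p of 0.05, against 0.43% of all genes lower. Grin1 stood at -0.12 in the E2F3a mice and 0.19 in the cocaine mice in the authors' deposited tables, a log2 difference of -0.31 (SE 0.14, unadjusted p = 0.0492). Gria1, an AMPA receptor subunit, differed by -0.24 (SE 0.12), Grm5, a metabotropic receptor, by -0.29 (SE 0.16) and Shank2, a postsynaptic scaffold, by -0.32 (SE 0.19), and these did not pass.

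All 12 GABA-A receptor subunits and all 20 synaptic adhesion genes lay below 0 as well, each with a median of -0.18. Each list had 1 member past that threshold, Gabra2 (8.33% of its list) and Nlgn1 (5%), against 0.43% of all genes lower. Of 16 calcium and sodium channel genes 15 lay below 0 (median -0.19) and of 19 potassium channel genes 17 did (median -0.16), with 0 past the threshold in either list. Cacna1e, of R-type calcium channels, differed by -0.35 (SE 0.21). With length and expression trends removed, the median of the glutamate receptor list was -0.17 and that of the adhesion list -0.14. Among these receptor, adhesion and channel genes 0 passed with the widest SE.

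Genes that define medium spiny neurons did not pass in either direction. All 12 lay below 0, with a median of -0.16 and 0 past an unadjusted p of 0.05. Ppp1r1b differed by -0.23 with an SE of 0.39 (95% interval -1.08 to 0.61), so a doubling is outside this interval and a halving just inside it. Drd1 differed by -0.10 (95% interval -0.79 to 0.60), Drd2 by -0.15 (-0.95 to 0.65) and Adora2a, the adenosine receptor of D2 neurons, by -0.20 (-1.04 to 0.63). The medians were -0.04 for D1 and -0.15 for D2 neuron markers, -0.18 for dopamine receptor and cAMP signalling genes and -0.24 for interneuron markers. Septal neuron markers had a median of -0.06 and cortical neuron markers one of -0.02, where Slc17a7 had a difference of 1.90 with an SE of 1.53.

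Immediate early genes, which neuronal activity switches on within minutes, had a median of -0.19, with 14 of 19 below 0. At an unadjusted p under 0.05, 2 members (10.5%) were lower, against 0.43% of all genes, and 0 were higher. Next to Npas4 this was Arc, which governs the removal of AMPA receptors from synapses. Arc stood at -0.70 in the E2F3a mice and 0.22 in the cocaine mice in the authors' deposited tables, a log2 difference of -0.92 (SE 0.38, 95% interval -1.76 to -0.08, unadjusted p = 0.0347). Fos differed by -0.22 (SE 0.23), Egr3 by -0.35 (SE 0.27) and Dusp1, a phosphatase of MAP kinases, by -0.30 (SE 0.18). Ier2 and Ier5 lay above 0, at 0.31 (SE 0.20) and 0.20 (SE 0.15). Among opioids and neuropeptides Vgf was the only member of 13 to pass (7.69%), and the median was -0.15. In these lists 0 genes passed with the widest SE, which holds for Npas4 and Arc too.

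Few clock or glucocorticoid-induced genes passed the unadjusted threshold. The 19 clock genes had a median of -0.09, with 15 below 0 and 0 past an unadjusted p of 0.05. Per2, a repressor of the clock, stood at 0.39 in the E2F3a mice and 0.63 in the cocaine mice in the authors' deposited tables. Its log2 difference was -0.23 (SE 0.16, 95% interval -0.58 to 0.11), and that of Per1 was -0.09 (SE 0.16). Of 17 glucocorticoid-induced genes, with a median of 0.15, 1 passed (5.88%), against 3.95% of all genes higher. This was Nfkbia, which holds NF-kappaB in the cytoplasm, at 0.44 (SE 0.18). Sgk1, a kinase induced by steroid hormones, differed by 0.39 (SE 0.22, unadjusted p = 0.0994). In the clock, glucocorticoid, splicing, chromatin and unfolded protein response lists, 0 genes passed with the widest SE.

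Splicing and chromatin regulators lay near 0. The 36 splicing regulators had a median of 0.01 (-0.02 with the median of all genes taken off), with 18 on each side, and only U2af1, of the factor that recognises the 3′ splice site, passed, at 0.25 (SE 0.11, unadjusted p = 0.0482). Rbfox2, a splicing factor of neurons and muscle, differed by -0.20 (SE 0.12). The 26 chromatin regulators had a median of -0.07. Ezh2, the methyltransferase of the Polycomb complex and a known E2F target, was the only one past an unadjusted p of 0.05, at 0.41 (SE 0.17). These single calls were 2.78% of the splicing list and 3.85% of the chromatin list, against 3.95% of all genes higher.

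Among housekeeping genes, all 39 cytosolic ribosomal protein genes lay above 0, with a median of 0.20 and 0 past an unadjusted p of 0.05. The largest of them was Rpl22 at 0.32 (SE 0.15, unadjusted p = 0.0647). The list's median in the authors' deposited tables was -0.10 in the E2F3a mice and -0.30 in the cocaine mice. Of 25 proteasome genes 24 lay above 0 (median 0.11) and of 24 respiratory chain genes 21 did (median 0.05), with 0 past the threshold. Unfolded protein response genes had a median of 0.06, with Pdia4, a disulfide isomerase, at 0.27 (SE 0.11) the only one of 20 to pass. That is 5% of the list, against 3.95% of all genes higher.

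**Figure D4:**
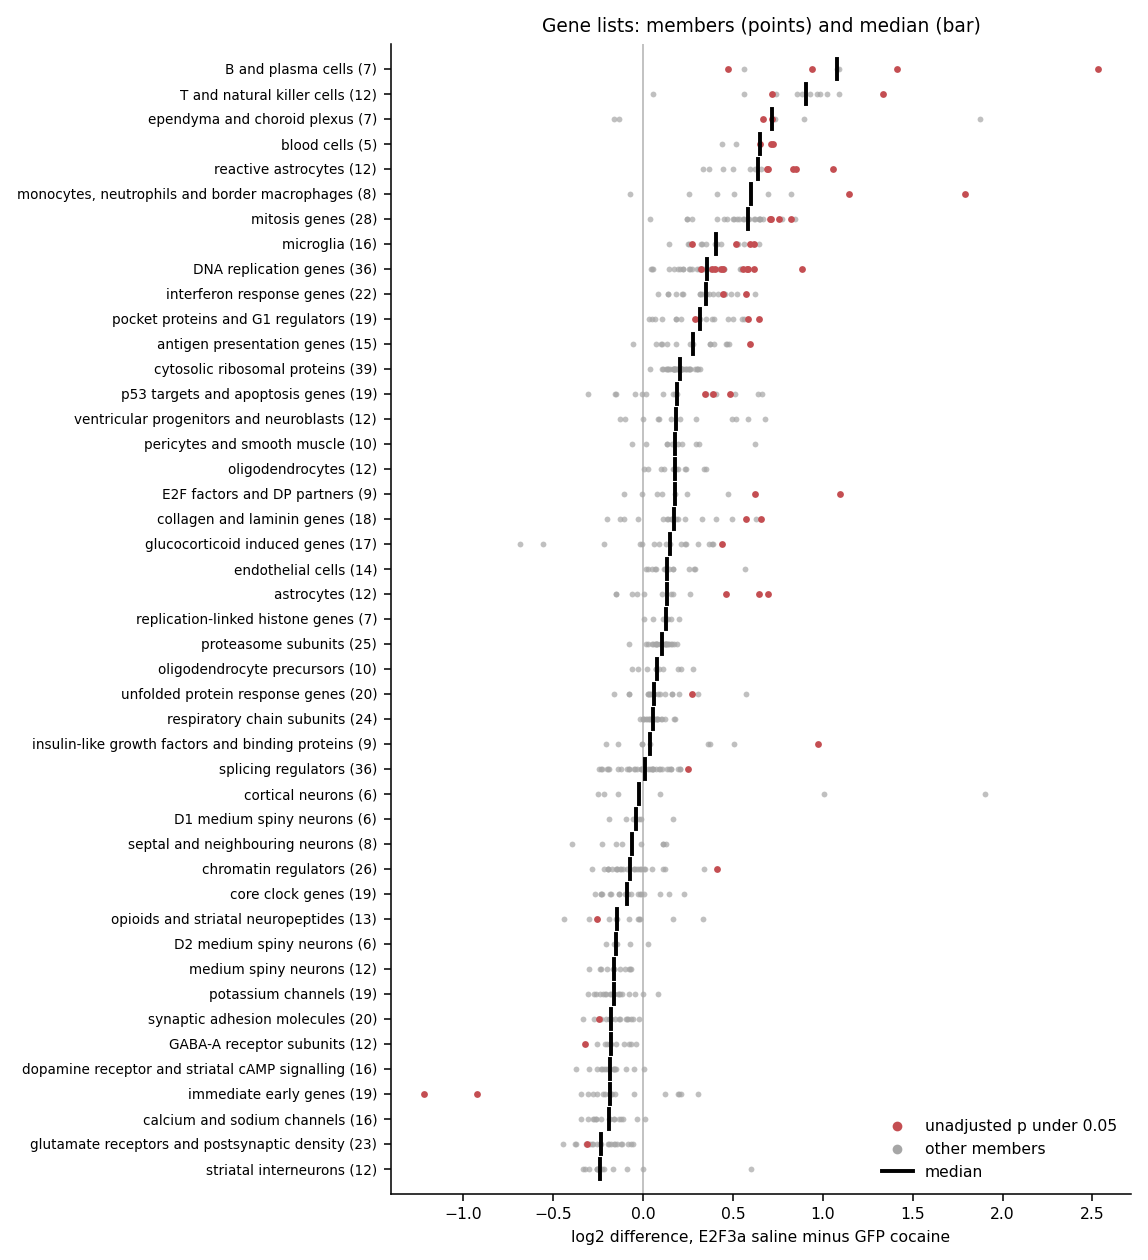
Each row is a gene list with the number of measured members in brackets, points are the members' log2 differences (E2F3a saline minus GFP cocaine) and bars the medians. Medians run from 1.08 for B and plasma cells to -0.24 for striatal interneurons, and the members past an unadjusted p of 0.05 are in colour.

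The difference also ran with transcript length and expression. Genes were ordered by transcript length and divided into 5 equal classes. In the class of the shortest transcripts the median difference was 0.08, and in that of the longest it was -0.03. In the authors' deposited tables the medians of the shortest transcripts were -0.07 in the E2F3a mice and -0.14 in the cocaine mice, and those of the longest 0.09 in the E2F3a mice and 0.12 in the cocaine mice. In the lowest of 5 classes of mean expression the median difference was 0.08, and in the highest -0.03. The synaptic and channel lists hold long and abundant transcripts and the ribosomal protein list short and abundant ones. With the trends removed the median was 0.17 for ribosomal protein genes. It was -0.15 for potassium channels, -0.13 for calcium and sodium channels and -0.14 for GABA-A receptor subunits. Such medians are given above for the replication, glutamate receptor and adhesion lists.

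**Figure D5:**
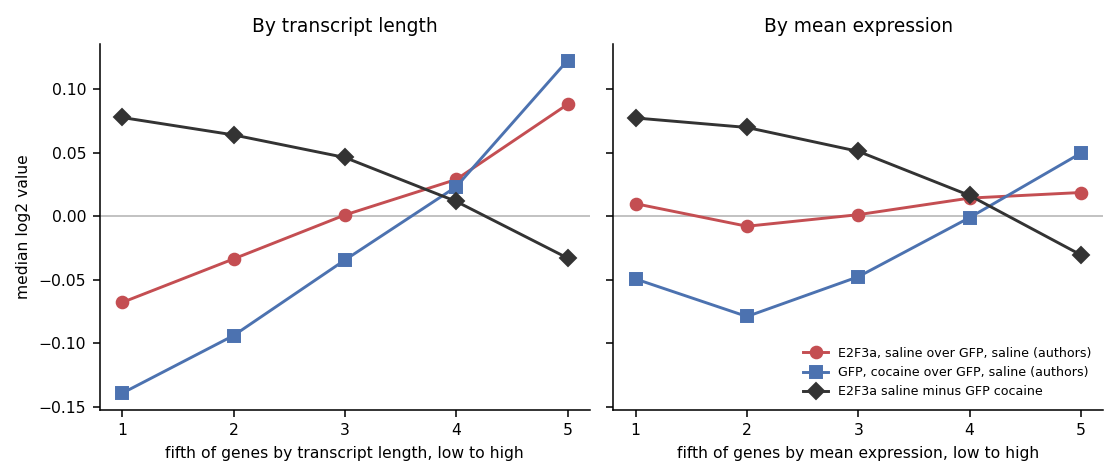
Genes are divided into 5 equal classes by transcript length (left) and by mean expression (right), low to high, and the median log2 value of each class is drawn for the E2F3a mice, the cocaine mice and their difference. The median difference goes from 0.08 in the shortest to -0.03 in the longest transcripts.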

How the data were processed

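Polyadenylated RNA of single accumbens samples (300 ng) went into TruSeq RNA v2 libraries, read single-end over 125 bases, per the labels' protocols. TopHat2 2.0.9, HTSeq 0.6.0, Bowtie2 2.1.0 and the build mm10 stand in the submitters' processing notes, without roles. No source used here gives the normalization, the filter or the test program. Per gene the authors deposited t and log odds (score columns), the log2 fold change, the log2 mean expression, a p-value and an adjusted p-value, per the file headers, in the layout of a limma table. Depth per library is unknown.

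The SE in each table is the log2 fold change over t. The variance of the difference is 4/7 of the cocaine variance plus 1/2 of the E2F3a variance, the parts of the groups of 3 and 4 without the shared control of 4. This assumes near-equal weight of libraries. The widest SE adds both variances in full, as if the control were not shared, and so counts the spread of the saline mice in both tables. Tests used the 11.29 degrees of freedom found from the deposited t and p, with Benjamini-Hochberg adjustment over 14667 genes. The rebuilt SE and p were checked on simulated data against limma 3.58.1 (R 4.3.3), which fitted the contrast itself. The simulated libraries were drawn at equal expected depth, so the check does not cover libraries of unequal weight. Python 3.11.15, numpy 2.4.6, scipy 1.17.1, pandas 2.3.3 and matplotlib 3.10.9 did the rest.

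Named genes were E2f3, then, as none passed the adjusted threshold, in each direction the 15 of lowest unadjusted p, leaving out the lowest 25% by mean expression (under a log2 of 3.21), and up to 5 members per list with the smallest p; others, named for their known role, were chosen after their values were seen. Some genes that the rule picks are not reported here. Of 758 entries in 45 lists, 713 were measured. Members and lists were chosen with earlier results of these data known. Coordinates and transcript lengths (14584 genes) come from GENCODE M21. The design named a count-based test for values per library; with tables of statistics the planned difference test was used.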

Additional observations from a re-analysis of the deposited data

How the results depend on the processing

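The count of genes past the adjusted threshold stayed at 0 with an adjusted p under 0.1, equal weight for every library, the widest SE, 8 residual degrees of freedom, the expression filter, or the median taken off. With length and expression trends removed it was 1, D10Wsu102e, whose longest transcript of 123179 bases is the longest of all and lies at the edge of the fitted curve; its difference was 0.13 before and 1.15 after. A rule of unadjusted p under 0.05 and a fold over 1.3 counts 488 genes. The 643 genes at an unadjusted p under 0.05 became 83 with the widest SE and 399 with the expression filter. The 188 list values under alternatives are medians or weighted means, and take in the S100 and fibroblast lists given below. Of these values, 2 changed sign: splicing regulators (-0.02 with the median taken off) and histone genes (-0.0033 with trends removed). Moves beyond the members' typical SE were the E2F and DP list (0.039 with trends removed), the B and plasma cell list (0.47 with the expression filter) and the ependymal list (0.27 with that filter, 0.23 as a weighted mean). The causes were not tested. Leaving out single libraries was not possible without values per library. No paired analysis was possible because the deposited columns carry no replicate number. Without values per library a library that stands apart cannot be seen, and p-values measure the spread between mice as the authors' fit estimated it.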

Other observations

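Some further groups were picked after the values of this comparison were seen and are given as descriptions. Of 9 measured S100 genes, small calcium-binding proteins, 8 had higher values in E2F3a than in cocaine mice, with a median log2 difference of 0.42. At an unadjusted p under 0.05, 6 (66.7%) were higher, against 3.95% of all genes, and 2 passed with the widest SE. S100a6 stood at 0.11 in the E2F3a mice and -0.90 in the cocaine mice in the authors' deposited tables, a log2 difference of 1.01 (SE 0.29), while S100b, the form of astrocytes, differed by -0.03 (SE 0.16). Of 15 measured genes of leptomeningeal and perivascular fibroblasts 3 (20%) were higher, with a median of 0.18 over the list. These were Aldh1a2, which makes retinoic acid, at 0.82 (SE 0.28), the matrix proteoglycan Dcn at 0.78 (SE 0.34) and Bgn at 0.52 (SE 0.24). With the widest SE 0 of the fibroblast genes passed.

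Gene segments of lymphocyte receptors lay higher in the E2F3a mice too. Of 26 T cell receptor segments 24 had a difference above 0 (median 1.03), 6 of them at an unadjusted p under 0.05, and of 34 immunoglobulin segments 24 did (median 0.66), with 2 at that threshold. The other 10 immunoglobulin segments lay below 0. Of all genes, 3.95% were higher at that threshold. In the authors' deposited tables the medians of the T cell receptor segments were -0.21 in the E2F3a mice and -1.22 in the cocaine mice. Those of the immunoglobulin segments were -0.96 in the E2F3a mice and -1.19 in the cocaine mice, so both groups lay below the saline mice with GFP. These segments are scarce, with a median of the mean log2 expression of -2.25 for T cell receptors and -4.30 for immunoglobulins in the authors' deposited tables. The largest difference of any gene was that of Ighg1, the constant region of an immunoglobulin G, at 6.59 with an SE of 4.07, and did not pass an unadjusted p of 0.05.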
